A study of Mus musculus with 12 samples.

Results

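NODAL signalling was followed through 8 genes in a mouse embryonic stem cell (ESC) line in which the circular RNA circKat6b-e2 had been knocked down. The 8 genes were chosen with earlier results of these data known. They were looked up by symbol among the 52636 genes of the count tables, and all 8 were found. They were the ligand genes Nodal and Gdf3, the type II receptor gene Acvr2b, the SMAD partner gene Foxh1, and the inhibitor genes Lefty1, Lefty2, Cer1 and Smad7. RNA sequencing covered 4 groups of 3 libraries, stated to be biological replicates, all from the E14 line. Knockdown (KD) cells carried an shRNA against circKat6b-e2 and were sampled as embryoid bodies (EBs) at day 6 and as undifferentiated ESCs, and wild-type (WT) cells were sampled at both stages. EBs are aggregates in which ESCs leave pluripotency and form several lineages. The ESCs of both genotypes were grown on gelatin with LIF, the MEK inhibitor PD0325901 and the GSK3 inhibitor CHIR99021. Nothing in the labels tells whether a control shRNA was put into the WT cells, nor whether the KD population came from 1 clone, so a difference between KD and WT also covers any other difference between these populations.

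NODAL is a secreted ligand of the TGF-beta superfamily. It acts through type I and type II activin receptors with an EGF-CFC co-receptor, and the activated receptors phosphorylate SMAD2 and SMAD3, which enter the nucleus with SMAD4 and bind DNA with partners such as FOXH1. Among the genes switched on in this way are Nodal itself and the LEFTY genes, whose products block NODAL outside the cell, so the pathway holds a positive and a negative loop. In the early mouse embryo it is known for maintaining the epiblast, inducing the primitive streak and endoderm, and setting the left-right axis.

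Start regions from RefSeq (GRCm38.p6), from 250 bases before to 50 bases after the start, were at hand for 3 of the 8 genes. The set of start regions used here had no entry for the others. They are shown so that the SMAD-binding letters near the starts of a ligand, an inhibitor and a receptor gene can be read. Capitals mark the SMAD-binding letters CAGAC and GGCGC on either strand. These 5-letter motifs did not overlap there, and the FOXH1 letters AATNNACA were also searched on both strands.
Nodal, chr10:61417722-61418021, plus strand: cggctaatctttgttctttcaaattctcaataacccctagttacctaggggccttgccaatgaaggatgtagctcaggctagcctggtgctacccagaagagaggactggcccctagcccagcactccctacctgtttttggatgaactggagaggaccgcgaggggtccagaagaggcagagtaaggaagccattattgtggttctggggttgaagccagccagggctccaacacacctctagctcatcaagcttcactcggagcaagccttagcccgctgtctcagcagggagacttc
Cer1, chr4:82885102-82885401, minus strand: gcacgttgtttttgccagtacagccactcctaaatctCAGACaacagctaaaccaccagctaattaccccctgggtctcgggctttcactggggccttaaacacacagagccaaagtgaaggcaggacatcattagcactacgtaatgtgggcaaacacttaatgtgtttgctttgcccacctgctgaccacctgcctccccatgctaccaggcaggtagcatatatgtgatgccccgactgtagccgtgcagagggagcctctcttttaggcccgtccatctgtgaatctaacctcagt
Acvr2b, chr9:119401928-119402227, plus strand: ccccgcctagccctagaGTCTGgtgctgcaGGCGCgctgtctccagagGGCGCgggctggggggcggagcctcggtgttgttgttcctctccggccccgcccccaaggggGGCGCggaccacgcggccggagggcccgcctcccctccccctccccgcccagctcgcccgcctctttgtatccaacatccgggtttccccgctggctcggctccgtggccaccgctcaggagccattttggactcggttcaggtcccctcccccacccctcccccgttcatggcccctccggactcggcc
The Nodal window held none of the 3 motifs. The Cer1 window held 1 CAGAC, and the Acvr2b window held 1 CAGAC and 3 GGCGC. AATNNACA was in none of the 3. Over 32544 distinct promoter windows of the same length, 12.1% held AATNNACA, 49.5% held CAGAC and 37.1% held GGCGC. The GC content was 54.0% for Nodal, 51.7% for Cer1 and 73.3% for Acvr2b. These matches describe the letters of the windows alone.

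Libraries held 25.4 to 37.8 M counts in all. Pou5f1, the pluripotency gene that encodes OCT4, ran from 50.5 to 56.6 CPM (counts scaled to the normalised library size) in KD EBs and from 39.02 to 46.7 CPM in WT EBs, against 1126 to 1261 CPM in KD ESCs and 917 to 1134 CPM in WT ESCs. ESC WT replicate 2 stood apart from the other libraries: its chi-square per gene against the other WT ESC libraries was 60.9 and 61.7, while other replicate pairs gave 4.96 to 9.57. The libraries were selected with poly-T, which leaves out circular RNA, and therefore hold no measure of circKat6b-e2 itself. The linear counts of its host gene Kat6b (60.5 to 62.3 CPM in KD EBs, 29.05 to 30.8 CPM in WT EBs, 98.7 to 106 CPM in KD ESCs and 66.1 to 89.3 CPM in WT ESCs) check nothing about it. In bulk RNA, fewer cells of a type and less RNA per cell cannot be told apart. All CPM given here were scaled over the 12 libraries by TMM. Fold changes between KD and WT came from each stage's own fit, by edgeR's quasi-likelihood test with Benjamini-Hochberg adjustment over all tested genes and a threshold of 0.05. The fit of all 12 libraries shifted the EB log2 fold changes by a median of 0.06.

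In EBs, which address how the KD changes differentiation, both ligands and both LEFTY genes rose in KD cells. Foxh1 fell, as did Acvr2b, whose adjusted p stood at the threshold. Of the 8 genes, 4 rose and 2 fell, beside a background in which 55.7% of the 17355 tested genes were called, 28.0% higher and 27.7% lower. The 8 genes had a median log2 fold change of 0.37, against 0.0024 over all tested genes. Because the 8 were chosen with earlier results of these data known, this contrast is no test of them as a set. Lefty1 and Lefty2 had the largest changes of the 8, and Smad7 had none that passed the test.

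**Figure D1:**
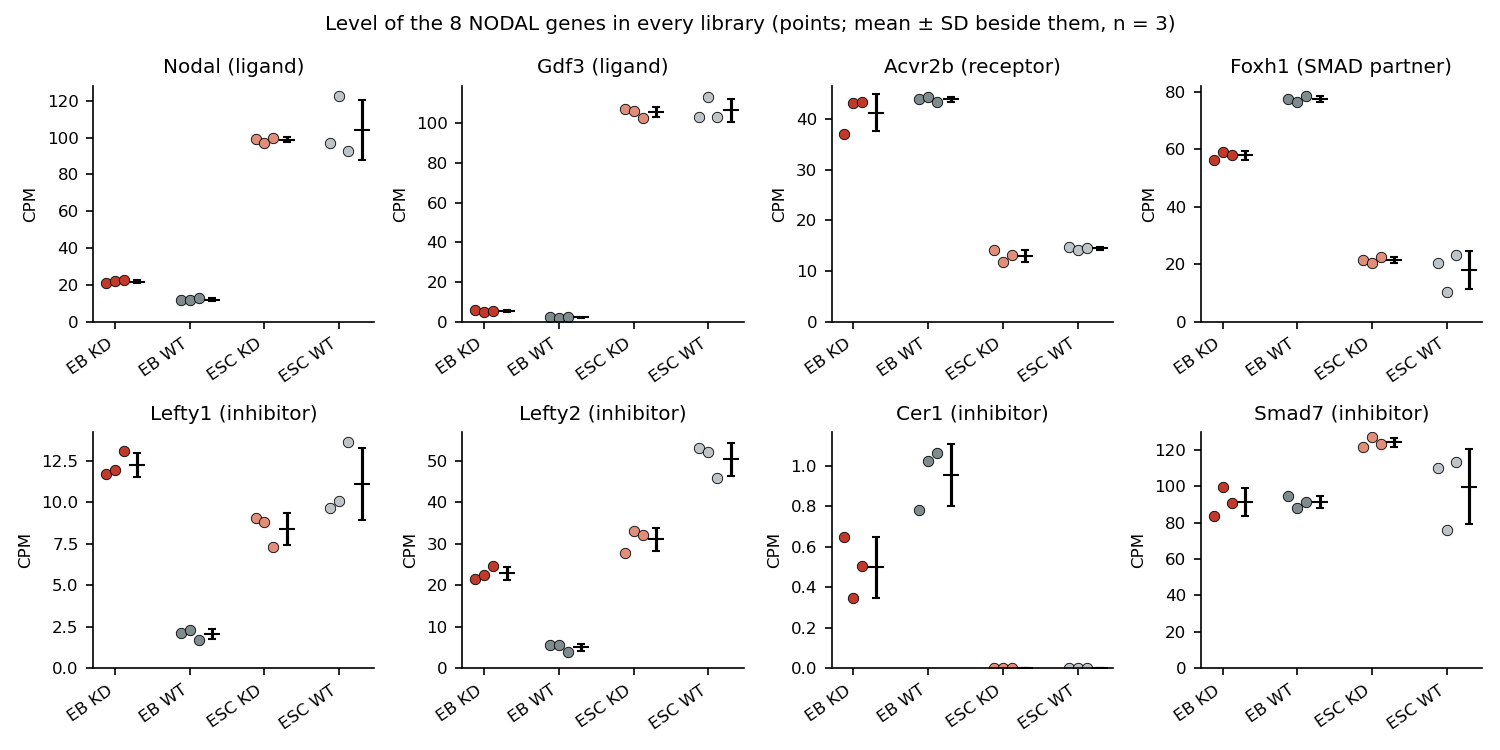
CPM (vertical axis, linear from 0) of each of the 8 genes in the 3 libraries of each group, with the mean and SD beside the points. Lefty1 reached 11.7 to 13.1 CPM in KD EBs and 1.72 to 2.29 CPM in WT EBs, while Cer1 had no count in either ESC group.

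Nodal, the ligand gene on chromosome 10 (61417972 to 61425338, plus strand, GRCm38), stood at 21.0, 21.8 and 22.5 CPM in KD EBs, against 11.5, 11.8 and 12.6 CPM in WT EBs. Every KD library was above every WT library. The log2 fold change was 0.80 (SE 0.09, edgeR adjusted p = 4.50e-09). Gdf3 encodes a NODAL-related ligand of pluripotent cells and lies on chromosome 6 (122605403 to 122610087, minus strand). It was low in EBs, at 5.79, 5.02 and 5.31 CPM in KD and 2.42, 1.56 and 2.20 CPM in WT libraries, again without overlap. Its log2 fold change was 1.32 (SE 0.20, edgeR adjusted p = 2.12e-06).

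Lefty1 and Lefty2 encode secreted antagonists of NODAL. They lie on the plus strand of chromosome 1, Lefty2 from 180893108 to 180899103 and Lefty1 from 180935022 to 180938400, 35918 bases apart. Lefty1 stood at 11.7, 11.96 and 13.1 CPM in KD EBs, against 2.14, 2.29 and 1.72 CPM in WT EBs. It rose 5.74-fold (log2 fold change 2.52, SE 0.16, edgeR adjusted p = 1.18e-14), with all KD libraries above all WT libraries. Lefty2 had 21.4, 22.5 and 24.5 CPM in KD EBs and 5.49, 5.45 and 3.99 CPM in WT EBs. Its rise was 4.41-fold (log2 fold change 2.14, SE 0.12, edgeR adjusted p = 3.94e-16). Its groups did not overlap either. The longest transcripts of the pair were identical at 83.6% of 1537 aligned bases, but only 12 windows of 150 bases, the read length, occurred in both (0.747% of those of Lefty1 and 0.488% of those of Lefty2), so few reads could belong to either gene.

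The other inhibitors did not follow the LEFTY genes. Cer1, whose product binds and blocks NODAL, lies on chromosome 4 (82881751 to 82885148, minus strand). It was close to the lower limit of detection in EBs, with 24, 12 and 19 counts in KD and 30, 38 and 44 counts in WT libraries. Every KD library was below every WT library, but the log2 fold change of −0.99 (SE 0.44) missed the threshold (edgeR adjusted p = 0.0572). It passed without EB KD replicate 1 (adjusted p = 0.0457) or without EB WT replicate 1 (adjusted p = 0.0481). Smad7, which encodes an intracellular inhibitor of the receptors and is itself a target of the pathway, lies on chromosome 18 (75367529 to 75395935, plus strand). It had 83.8, 99.6 and 90.6 CPM in KD EBs and 94.6, 87.9 and 91.3 CPM in WT EBs. The groups overlapped and the log2 fold change was −0.06 (SE 0.05, edgeR adjusted p = 0.334). It was called lower without EB KD replicate 2 (−0.12, adjusted p = 0.0450).

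Foxh1, the DNA-binding partner of the SMAD complex, had 56.2, 59.1 and 58.1 CPM in KD EBs, against 77.4, 76.5 and 78.6 CPM in WT EBs. It fell by 0.48 on the log2 scale (SE 0.05, edgeR adjusted p = 1.84e-10), with no overlap, and was not called in the fit of all 12 libraries (adjusted p = 0.0935). Foxh1 lies on chromosome 15 (76668284 to 76669948, minus strand), 87 bases from Kifc2. That neighbour, added after its value was seen, also fell (−0.66, SE 0.07, edgeR adjusted p = 7.59e-10). The counts were made without strand, and the annotated exons of the 2 genes do not overlap. Acvr2b, the type II receptor gene on chromosome 9 (119402118 to 119434995, plus strand), had 37.05, 43.2 and 43.4 CPM in KD EBs and 43.9, 44.4 and 43.3 CPM in WT EBs. Its groups overlapped in these CPM, which were scaled over the 12 libraries. Scaled over the EB libraries alone, as in the fit, the groups of Acvr2b did not overlap. Acvr2b then had 42.7, 49.5 and 49.6 CPM in KD EBs and 52.5, 53.2 and 51.6 CPM in WT EBs. Its fall of −0.15 (SE 0.06, edgeR adjusted p = 0.0451) stood at the threshold, and it was lost without EB KD replicate 1 (−0.08, adjusted p = 0.313), without any 1 of EB WT replicates 1, 2 and 3 (adjusted p = 0.0911, 0.119 and 0.0551), with DESeq2 (adjusted p = 0.0580) and with library size only (−0.14, adjusted p = 0.0699).

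**Figure D2:**
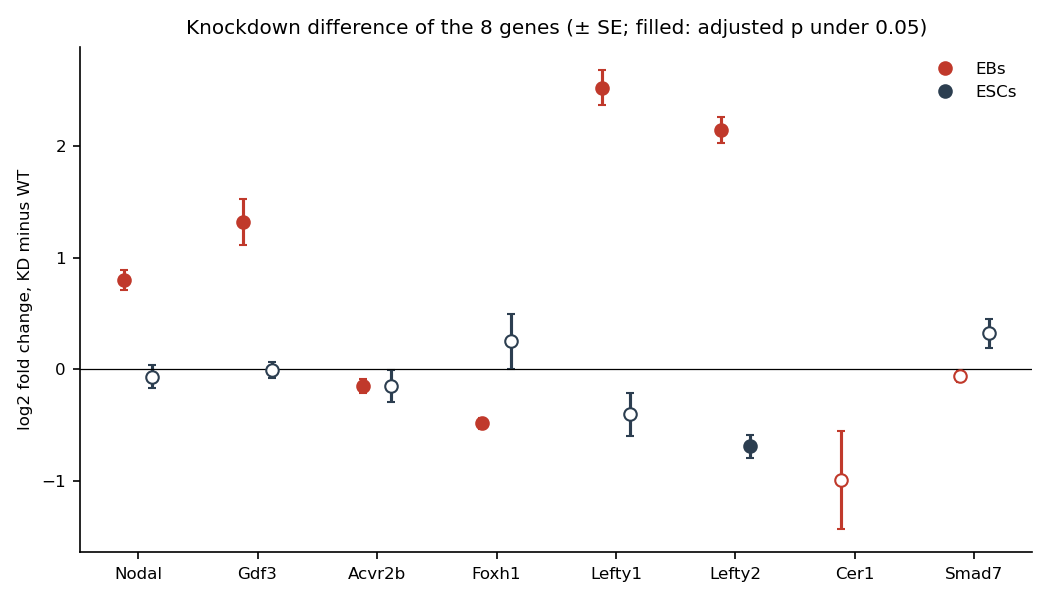
Log2 fold change of KD minus WT (vertical axis) with its SE for each of the 8 genes, in EBs and in ESCs; filled points passed an adjusted p of 0.05. Nodal, Gdf3, Lefty1 and Lefty2 lie above 0 in EBs, and in ESCs Lefty2 alone is filled, below 0.

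The remaining genes of the pathway were taken from lists by role, also chosen with earlier results of these data known. Of 38 such genes 35 were tested in EBs, of which 22 rose and 7 fell. The share called was 82.9%, beside 55.7% of all tested genes, and the median log2 fold change was 0.18. Gdf1, Inhba and Acvr1c did not pass the filter on low counts, and Gdf1 had no count in any library. Among the ligands, co-receptors and processing enzymes, 4 of 7 tested genes rose and 2 fell, Nodal and Gdf3 included. The 2 EGF-CFC co-receptor genes moved in opposite directions. Cfc1, which encodes Cryptic, fell to 10.1 ± 0.852 CPM in KD EBs, with WT EBs at 32.6 ± 2.09 CPM, a log2 fold change of −1.75 (SE 0.09, edgeR adjusted p = 7.42e-17). Tdgf1, which encodes Cripto and was named after its value was seen, rose by 1.05 (SE 0.09, edgeR adjusted p = 6.78e-12), with KD EBs at 25.9 ± 0.349 CPM and WT EBs at 11.96 ± 0.733 CPM. Processed copies of Tdgf1 exist in the genome, so its counts are uncertain. Pcsk6, which encodes the PACE4 convertase that cleaves the NODAL precursor, rose by 1.43 (SE 0.18), while the convertase gene Furin fell (−0.42, SE 0.04).

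Of the 5 tested receptor genes, 4 rose and Acvr2b alone fell, a share called of 100.0% beside 55.7% of all tested genes. The fall of Acvr2b stood at the threshold, and with DESeq2 0 of the 5 fell. The largest rises were those of Tgfbr1 (KD EBs at 139.9 ± 4.55 CPM, WT EBs at 53.3 ± 4.94 CPM; log2 fold change 1.33, SE 0.05) and Tgfbr2 (1.17, SE 0.12), which encode the TGF-beta receptors, with edgeR adjusted p of 2.67e-17 and 1.08e-09. The type I receptor gene of NODAL, Acvr1b, rose by 0.42 (SE 0.04). Among 9 transducers and partners, 4 rose and 2 fell, a share called of 66.7% beside 55.7% of all tested genes. The SMAD corepressor gene Ski rose by 0.48 (SE 0.04), Tgif1, which encodes another corepressor, fell (−0.35, SE 0.05), and Smad3 did not pass (−0.08, SE 0.04, edgeR adjusted p = 0.112).

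Among 16 target genes, 11 rose and 3 fell in KD EBs, with a median log2 fold change of 0.73. The share called was 87.5% of this list, beside 55.7% of all tested genes. This list includes Nodal, Lefty1, Lefty2 and Smad7. Mixl1, a homeobox gene of the primitive streak, rose by 2.69 (SE 0.20, edgeR adjusted p = 6.52e-13), with KD EBs at 8.45 ± 0.254 CPM and WT EBs at 1.25 ± 0.330 CPM. The falls were those of Fgf8 (−1.63, SE 0.11), Lhx1 (−0.56, SE 0.11) and Foxa2 (−0.23, SE 0.06), and Skil (0.06, SE 0.05) and Smad7 did not pass. Of the 10 genes on the list of inhibitors, which holds all 4 inhibitors described above, 6 rose and 1 fell. The share called there was 70.0%, beside 55.7% of all tested genes. Outside the LEFTY genes the called changes were small, with follistatin, Fst, at 0.36 (SE 0.12, edgeR adjusted p = 0.0101) and Nomo1 at −0.25 (SE 0.04).

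**Figure D3:**
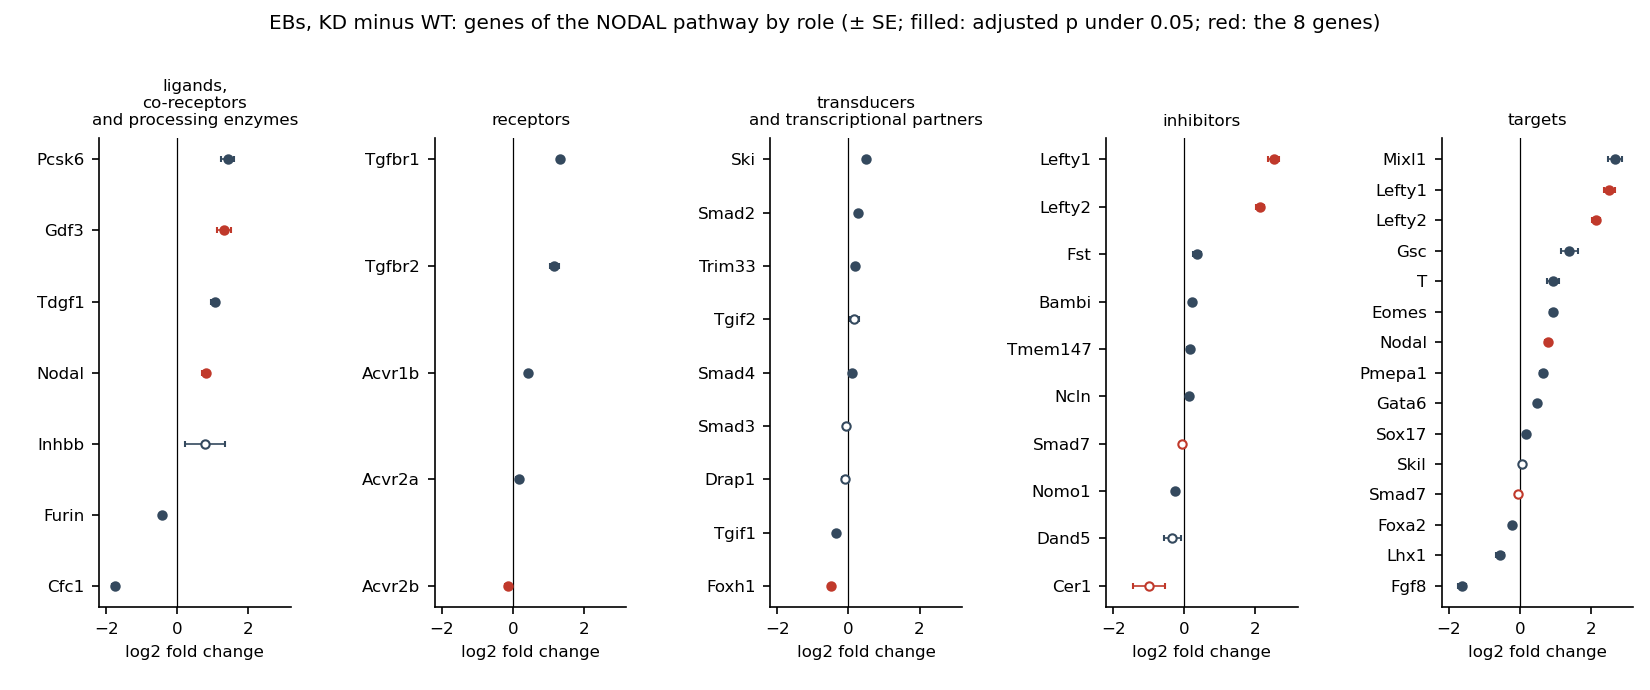
Log2 fold change of KD minus WT in EBs (horizontal axis, with SE) for genes of the NODAL pathway in 5 lists by role; red marks the 8 genes and filled points passed an adjusted p of 0.05. Mixl1, Lefty1 and Lefty2 lie farthest to the right and Cfc1 and Fgf8 farthest to the left.

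Markers of several cell types also changed in EBs, where 55.7% of all tested genes were called, 28.0% higher and 27.7% lower. The share called was lowest for the anterior visceral endoderm list, at 33.3%, and was 100.0% for the primitive streak and trophoblast lists. Of 8 markers of pluripotent cells 7 rose and none fell, with a summed level of 294 to 330 CPM in KD EBs and 160 to 166 CPM in WT EBs; Nanog was the exception (−0.10, SE 0.06). Of 9 extraembryonic endoderm markers 4 rose and 3 fell, with summed levels of 705 to 723 CPM in KD and 413 to 422 CPM in WT EBs. Of 7 markers of primitive streak and nascent mesoderm 4 rose and 3 fell, at 83.2 to 87.0 CPM in KD and 78.9 to 81.8 CPM in WT EBs. The list for anterior visceral endoderm, which includes Cer1 and Lefty1, had 1 of 6 tested genes higher (Lefty1) and 1 lower (Lhx1), at 77.8 to 78.8 CPM in KD and 71.5 to 77.1 CPM in WT EBs. Trophoblast markers had 1 of 5 tested genes higher and 4 lower, at 596 to 613 CPM in KD and 847 to 857 CPM in WT EBs. Definitive endoderm markers had 4 of 6 higher and 1 lower, at 305 to 315 CPM in KD and 253 to 261 CPM in WT EBs, and neuroectoderm markers 3 of 5 tested higher and 1 lower, with sums of 80.0 to 83.7 CPM in KD and 58.7 to 63.3 CPM in WT EBs. No marker of these lists was at 0 throughout either EB group. The part of these cell types in the changes of the 8 genes was not tested.

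In undifferentiated ESCs, which address the KD in self-renewing cells, Lefty2 was the single gene of the 8 whose change passed the test. Of the 7 that passed the filter on low counts, 0 rose and 1 fell, beside a background of 0.603% of 16081 tested genes called. Lefty2 had 27.8, 33.1 and 32.2 CPM in KD ESCs, against 53.1, 52.1 and 45.7 CPM in WT ESCs, with no overlap. It fell by 0.69 on the log2 scale (SE 0.11, edgeR adjusted p = 0.0226). The direction was the same with each library left out, but the call was lost without KD replicate 1, 2 or 3 (adjusted p = 0.167, 0.160 and 0.166), without WT replicate 1 (adjusted p = 0.0680) and with library size only (adjusted p = 0.0949), and it was kept without WT replicate 2 (−0.67, adjusted p = 5.32e-06). Lefty1 was lower in each KD library, at 9.06, 8.78 and 7.30 CPM against 9.64, 10.1 and 13.6 CPM in WT ESCs, and did not pass (−0.40, SE 0.19, edgeR adjusted p = 0.255).

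Nodal and Gdf3 were among the more abundant of the 8 genes in ESCs and showed no difference that passed. Nodal had 99.2, 97.3 and 100.0 CPM in KD ESCs and 97.0, 122.5 and 92.6 CPM in WT ESCs (log2 fold change −0.07, SE 0.10, edgeR adjusted p = 0.751). Gdf3 had 107, 106 and 103 CPM in KD and 103, 113 and 103 CPM in WT ESCs (−0.0041, SE 0.07, edgeR adjusted p = 0.982). For both, the highest value belonged to WT replicate 2, and the sign of the difference turned without that library (0.065 and 0.039). That library was also lowest for Foxh1, which had 21.3, 20.4 and 22.4 CPM in KD and 20.5, 10.4 and 23.1 CPM in WT ESCs (0.25, SE 0.24, edgeR adjusted p = 0.583), and −0.022 without it. Smad7 had 122, 127 and 123 CPM in KD and 110, 75.9 and 113 CPM in WT ESCs (0.32, SE 0.13, edgeR adjusted p = 0.197). Acvr2b had 14.07, 11.7 and 13.2 CPM in KD and 14.7, 14.1 and 14.6 CPM in WT ESCs (−0.15, SE 0.14, edgeR adjusted p = 0.579). As with the LEFTY genes, the KD and WT ranges of Smad7 and Acvr2b did not overlap in these CPM, for Acvr2b by a narrow margin. Scaled over the 6 ESC libraries alone, as in the fit, those of Acvr2b did overlap (12.07 CPM in KD replicate 1, 12.01 CPM in WT replicate 2). The share of all genes without overlap is not given here. Cer1 had 0 counts in all 6 libraries, which allows up to 3 read pairs, or 6 counts where both mates were counted. That is 0.0803 CPM over the KD and 0.0744 CPM over the WT libraries, and covers counting error only. Of the 30 other pathway genes tested in ESCs, 0 were called by edgeR and 0 by DESeq2. An unadjusted p under 0.05 was found for 7 of them, a share of 23.3%, against 21.4% of all tested genes. Without WT replicate 2, 1 of the 30 (3.33%) was called, higher in KD, against 3.75% of all 16648 genes tested there. Of 8 pluripotency markers in ESCs 0 were called by edgeR. An unadjusted p under 0.05 was found for 5 of the 8, against 21.4% of all tested genes. DESeq2 called 2 of the 8 higher, against 331 higher genes in all, or 2.06% of those tested. Without WT replicate 2, edgeR called 4 of the 8 higher, against 624 genes, or 3.75% of those tested there. The summed level of these markers was 3895 to 3979 CPM in KD and 3060 to 3625 CPM in WT ESCs. Of 3 tested extraembryonic endoderm markers 1 fell, Amn, and the summed level of the list was 15.0 to 16.3 CPM in KD and 28.3 to 32.8 CPM in WT ESCs. Amn alone made up most of it, with a mean of 13.8 CPM of a mean sum of 15.5 CPM in KD ESCs. In WT ESCs it was 28.4 of 31.2 CPM. Afp was at 0 in all KD ESC libraries and in all WT ESC libraries but replicate 1. The part of any such cell type in the fall of Lefty2 was not tested.

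The difference between the KD effect in EBs and that in ESCs was tested in a single fit of all 12 libraries, in which 23.0% of 18975 genes were called, 12.8% with a more positive and 10.2% with a more negative effect in EBs. It passed for 4 of the 8 genes, each time with the more positive effect in EBs. The differences on the log2 scale were 2.99 for Lefty1 (SE 0.26, edgeR adjusted p = 1.16e-06), 2.90 for Lefty2 (SE 0.17, adjusted p = 3.59e-08), 1.39 for Gdf3 (SE 0.16, adjusted p = 1.62e-05) and 0.93 for Nodal (SE 0.13, adjusted p = 0.000123). These 4 calls were made in each of the 12 fits with 1 library left out. Foxh1 (−0.66, SE 0.27, adjusted p = 0.0957), Smad7 (−0.31, SE 0.16, adjusted p = 0.190) and Acvr2b (0.06, SE 0.13, adjusted p = 0.790) did not pass. Foxh1 was called without ESC WT replicate 2 (−0.43, adjusted p = 0.00285), without ESC WT replicate 3 (−0.90, adjusted p = 0.0198) and with the replicate number as a block (−0.73, adjusted p = 0.0394). For Cer1, without a count in ESCs, no difference can be estimated.

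Between stages, the ligand genes were lower and Acvr2b, Foxh1 and Cer1 higher in EBs than in ESCs in both genotypes. In each genotype 79.8% of 18975 genes were called, 42.5% higher and 37.3% lower in EBs, and stage cannot be told apart from any other difference between the 2 count tables. In KD cells all 8 genes changed, 4 higher and 4 lower in EBs, and in WT cells 7 did, 3 higher and 4 lower. Gdf3 fell most, with EB minus ESC log2 fold changes of −4.29 (SE 0.11) in KD and −5.68 (SE 0.12) in WT cells. Nodal fell by 2.18 (SE 0.10) in KD and by 3.12 (SE 0.10) in WT cells. Foxh1 rose by 1.44 (SE 0.19) in KD and by 2.1 (SE 0.20) in WT cells, and Acvr2b by 1.67 (SE 0.10) in KD and by 1.60 (SE 0.10) in WT cells. The edgeR adjusted p of these 8 tests ran from 2.00e-15 to 1.16e-05. Cer1 was at least 6.25-fold higher in KD EBs and at least 12.9-fold higher in WT EBs than a floor of 3 read pairs, or 6 counts, over the 3 ESC libraries of the same genotype.

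The 2 LEFTY genes differed between genotypes in this step. Lefty1 rose in KD cells (12.2 ± 0.734 CPM in EBs and 8.38 ± 0.947 CPM in ESCs; EB minus ESC difference 0.55 on the log2 scale, SE 0.17, edgeR adjusted p = 0.00923) and fell in WT cells (2.05 ± 0.298 CPM in EBs and 11.1 ± 2.17 CPM in ESCs, −2.44, SE 0.19, edgeR adjusted p = 6.12e-09). The rise in KD cells was not called without ESC KD replicate 3 (0.39, adjusted p = 0.0753). Lefty2 fell in both, by 0.44 (SE 0.12, edgeR adjusted p = 0.00291) in KD and by 3.34 (SE 0.13, edgeR adjusted p = 1.55e-12) in WT cells. Scaling by library size alone moved the median EB minus ESC log2 fold change of all genes by 0.37 in KD and 0.53 in WT cells, and then 61.9% of called genes were higher in KD and 65.2% in WT EBs, against 53.2% and 53.3%. Under it the fall of Lefty2 in KD cells was not called (−0.08, adjusted p = 0.592). Smad7 fell by 0.44 in KD cells (SE 0.11, edgeR adjusted p = 0.00263), was not called with library size only (−0.07, adjusted p = 0.661), and in WT cells was at −0.13 (SE 0.11, adjusted p = 0.310), or 0.39 and called higher with library size only (adjusted p = 0.0261). Without ESC WT replicate 2 it was called lower in WT EBs (−0.32, adjusted p = 4.95e-05).

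Per length, as TPM (counts per exon base, scaled to the library's own sum), Foxh1 was the most abundant of the 8 in EBs and Nodal in ESCs. In KD EBs the order was Foxh1 (169.5 TPM), Smad7 (77.4), Acvr2b (40.2), Nodal (39.8), Lefty2 (33.5), Lefty1 (26.7), Gdf3 (8.50) and Cer1 (1.10), and the libraries' ranges overlapped for the neighbours Acvr2b and Nodal alone. WT EBs had the same order, with Nodal at 21.5 TPM, Lefty2 at 7.19 TPM and Lefty1 at 4.39 TPM, and with overlap for Lefty1 and Gdf3 alone. In KD ESCs the order was Nodal (90.2 TPM), Gdf3 (83.2), Smad7 (52.5), Foxh1 (31.3), Lefty2 (22.7), Lefty1 (9.09), Acvr2b (6.33) and Cer1 (0), with no overlap between neighbours. WT ESCs differed in having Lefty2 (31.4 TPM) above Foxh1 (23.3 TPM), and there Smad7, Lefty2 and Foxh1 each overlapped with the next. On this scale Lefty2 was higher in KD EBs (33.5 ± 1.90 TPM) than in KD ESCs (22.7 ± 2.25 TPM), the reverse of its CPM; TPM carries no TMM factor. Likewise Nodal was at 90.2 ± 2.84 TPM in KD ESCs and 80.0 ± 1.30 TPM in WT ESCs, while its CPM overlapped.

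The balance of inhibitor to ligand transcripts can be read within a library, where scaling between libraries plays no part. The summed TPM of Lefty1 and Lefty2 was 1.48, 1.49 and 1.57 times that of Nodal in KD EBs, against 0.607, 0.600 and 0.416 times in WT EBs. KD EBs were the single group in which the LEFTY transcripts outnumbered those of Nodal. In KD ESCs the ratio was 0.334, 0.381 and 0.345, against 0.557, 0.440 and 0.571 in WT ESCs, so KD lay above WT in EBs and below it in ESCs, without overlap in either stage. The ratio of Lefty1 to Lefty2 was 0.811, 0.788 and 0.792 in KD EBs, against 0.577, 0.625 and 0.639 in WT EBs. In ESCs it overlapped between 0.484, 0.394 and 0.337 in KD and 0.270, 0.287 and 0.442 in WT cells. These ratios were chosen after the values were seen and were not tested.

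**Figure D4:**
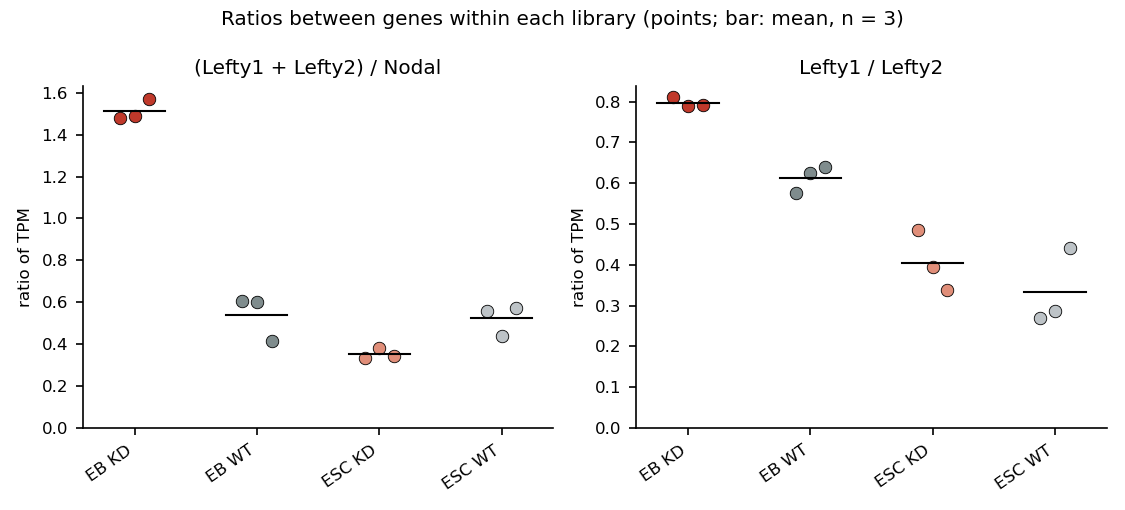
Ratio of TPM within each library (points, with the group mean as a bar) of Lefty1 plus Lefty2 to Nodal (left) and of Lefty1 to Lefty2 (right). In the left panel the KD EBs lie at 1.48 to 1.57 and all other groups below 0.61.

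Across the 12 libraries, whose 4 groups set most of any correlation, the genes most like Nodal in log2 CPM were Etv5 (Pearson r = 0.999), Mpdu1 (0.998) and Dppa5a (0.998). Those most like Gdf3 were Sept1, Aven and Spp1 (0.999 each). Lefty1 was most like Acvrl1 (0.991), an endothelial type I receptor gene of the TGF-beta family, Clcn7 (0.978) and Sema5b (0.976). Lefty2 was most like Me2, Arl4d (0.990 each) and Pdia6 (0.989). Etv5, a target of FGF signalling in ESCs, had 93.1 to 95.1 CPM in KD EBs and 49.3 to 52.4 CPM in WT EBs, and Acvrl1 had 15.01 to 16.4 CPM in KD EBs and 1.76 to 2.71 CPM in WT EBs. Foxh1 was most like Heca, Sgtb and Yipf4 (0.995 each), Cer1 like G2e3, Arid3b and Lin28a (0.993 to 0.994), Acvr2b like Chd7, Phldb1 and Krt8 (0.996 to 0.997), and Smad7, whose pattern was matched least, like Rab5if (0.978), Ints11 (0.960) and B4galt5 (0.955). Foxh1, Smad7 and these matches of both were each lowest in ESC WT replicate 2, the library that stood apart from the others. Among the 8 genes, the nearest pair was Nodal and Gdf3 (r = 0.996), while Lefty1 and Lefty2 had r = 0.904. Dppa3, a germ cell and pluripotency gene 16322 bases from Gdf3 that was singled out after its value was seen, also rose in KD EBs (2.99, SE 0.26, edgeR adjusted p = 4.99e-11).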

How the data were processed

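The authors deposited raw gene counts in 1 table per stage. The submitters' processing notes name HISAT2 (2.1.0), the mm10 build, featureCounts (2.0.3) and DESeq2 (1.18.1). Per the file headers, counting used the Ensembl release 90 annotation of GRCm38, pairs with both ends mapped, no strand option and no option to count pairs. Counts from 1 to 10 were even in 61.7% to 68.7% of cases per library, against 48.0% to 51.6% for those from 101 to 1000, the pattern of mates counted singly, so counts overstate fragments. Of the 52636 genes, 52403 were matched to a symbol. How multiply aligned reads were treated is not given in the sources used here.

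KD and WT were compared within each stage, and stages and the difference of KD effects in 1 fit of all 12 libraries, with edgeR 4.0.16 in R 4.3.3 (quasi-likelihood F-test, TMM, filterByExpr with a minimum count of 10 and total of 15, robust, no covariate). Each SE was derived from the log2 fold change and its F statistic. The procedure was tested on simulated data. Alternatives were DESeq2 1.42.0, other scalings, no filter, a replicate block, other sample sets and each library left out. No 2 libraries of a group held identical values, and p-values measure the spread between libraries. All 8 genes were named, and of the other pathway genes the 2 with the largest called EB changes per list; further genes complete a count or are said to have been chosen later. A target gene that this choice also names is not reported here. For each of the 8, the 3 genes of highest correlation were named. The genes and lists were chosen with earlier results of these data known. Cer1 entered no test in ESCs.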

Additional observations from a re-analysis of the deposited data

Results flagged for a closer look

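The difference of the KD effect between EBs and ESCs passed its test for 4 of the 8 genes in the fit of all 12 libraries. There 23.0% of 18975 genes were called, 12.8% with a more positive effect in EBs. The 8 were chosen with earlier results of these data known. On the log2 scale the KD effect was more positive in EBs by 2.986 for Lefty1, 2.895 for Lefty2, 1.389 for Gdf3 and 0.9342 for Nodal, with edgeR adjusted p of 1.16e-06, 3.59e-08, 1.62e-05 and 0.000123. For Lefty2 the effects in the 2 stages had opposite signs, 2.14 in EBs and −0.69 in ESCs, both past the threshold. For Lefty1 they were 2.52 in EBs and −0.40 in ESCs, of which the first alone passed. These differences describe the libraries at hand, and what produced them was not tested.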

How the results depend on the processing

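The calls of Nodal, Gdf3, Lefty1 and Lefty2 in EBs, and of their differences between stages, were made under each alternative run. Over all single-gene results for the 8 genes, 457 of 491 alternative values had the direction and side of the threshold of the reported one, 16 lost the call, 8 gained it and 10 changed sign. The ESC comparison was the least stable. Its 97 called genes became 36 with library size only, 1030 with DESeq2, 1769 without a filter, 266 with a replicate block and 1999 in the fit of all 12 libraries, and ran from 8 to 1557 with 1 library left out, the highest without ESC WT replicate 2. The 1 called gene of the 8 in ESCs became 0 with library size only, 2 without a filter, and 0 to 1 with 1 library left out. The 2 without a filter were Lefty2 and Smad7 (0.32, adjusted p = 0.00929). The share of higher genes among the ESC calls was 27.8%, and 48.5% in the fit of all 12 libraries. Among genes called for the difference between stages it was 55.6%, and 35.3% with library size only, which moved the median by −0.16. In ESCs that scaling moved the median by 0.11.

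Sign changes in ESCs were those of Nodal (0.057 with library size only, −0.14 to 0.065 with 1 library left out), Gdf3 (0.11 with library size only, −0.028 to 0.039 with 1 library left out) and Foxh1 (−0.022 to 0.47 with 1 library left out). With 1 library left out, the positive value of Nodal and the negative value of Foxh1 came without ESC WT replicate 2, those of Gdf3 without it or without ESC KD replicate 3. In EBs Smad7 turned to 0.0013 in the fit of all 12 libraries, where Acvr2b was also not called (−0.09, adjusted p = 0.497). EB minus ESC of Smad7 in WT cells turned to 0.39 with library size only. The difference between stages for Acvr2b turned to −0.10 with library size only and ran from −0.033, without ESC KD replicate 2, to 0.13 with 1 library left out. The cause was not tested. Same-numbered KD and WT libraries correlated between −0.09 and 0.11 in their deviations from the group means, and 2 of 6 KD libraries correlated best with their own number. These correlations gave no sign of pairing by number, but they cannot show that the cultures were unpaired. With the replicate block 9655 genes were called in EBs, 15025 between stages in KD cells, 15071 in WT cells and 3991 for the difference, and of the 8 genes the block changed the call of the Foxh1 difference alone. Low depth limits Cer1, with at most 44 counts in a library.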

Other observations

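The 2 EGF-CFC co-receptor genes moved in opposite directions between stages, a pair chosen after the values were seen. Tdgf1 was at 25.9 ± 0.349 CPM in KD EBs and 11.96 ± 0.733 CPM in WT EBs, against 728 ± 13.1 CPM in KD ESCs and 745 ± 31.9 CPM in WT ESCs (SD, n = 3). Its EB minus ESC log2 fold change was −4.81 (SE 0.06) in KD and −5.96 (SE 0.07) in WT cells, with edgeR adjusted p of 3.75e-17 and 7.75e-18. Cfc1 was at 10.1 ± 0.852 CPM in KD EBs and 32.6 ± 2.09 CPM in WT EBs, against 0.120 ± 0.0363 CPM in KD ESCs and 0.271 ± 0.179 CPM in WT ESCs (6.35, SE 0.32, in KD and 6.83, SE 0.27, in WT cells, edgeR adjusted p = 2.39e-11 and 1.33e-12). Inhbb, which encodes an activin subunit, had 0.373 to 0.693 CPM in KD EBs and 0.162 to 0.338 CPM in WT EBs, against 18.02 to 21.8 CPM in KD ESCs and 12.1 to 19.8 CPM in WT ESCs. Between stages, the KD effect on Tdgf1 differed (1.15, SE 0.08, edgeR adjusted p = 1.34e-07) while the test for Cfc1 did not pass (−0.48, SE 0.64, edgeR adjusted p = 0.645).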
